A study of Homo sapiens with 12 samples.

Results

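The autophagy core and lysosome genes are 47 genes that build the autophagosome, the membrane sac that encloses cytoplasm for degradation, or equip the lysosome, the acidic organelle that digests its content. They were chosen by symbol from a fixed list of members, and all 47 were found among the 28278 gene symbols counted. Of these members 31 act in forming the autophagosome or in loading its cargo, 14 are lysosomal proteins, and 2 (TFEB and TFE3) are transcription factors that activate genes of both kinds.

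Autophagy starts when the ULK1 kinase complex and a phosphatidylinositol 3-kinase complex mark a patch of endoplasmic reticulum (ER) membrane, on which a cup-shaped membrane grows with lipid carried by ATG9A and ATG2 proteins. Small proteins of the ATG8 family are then coupled to the membrane lipid, and cargo receptors such as SQSTM1 bind both them and the material to be enclosed. The closed sac fuses with a lysosome, where proton-pumping V-ATPase keeps the pH low and cathepsins degrade the content. ER stress is known to raise transcription of several autophagy genes through ATF4 and CHOP, and in mice the loss of autophagy in pancreatic beta cells is known to impair insulin secretion.

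The study set out to profile ER stress in alpha cells, which secrete glucagon from the pancreatic islet. The cells were made from HUES-8, an established line of human embryonic stem cells, and kept for 48 h in 30 mL bioreactors at 40 rpm. In the tunicamycin group, 6 samples received 5 uM tunicamycin, which blocks N-glycosylation so that unfolded protein accumulates in the ER, and in the DMSO group 6 samples received the solvent DMSO. Samples numbered 1 to 3 in each group were sequenced in batch 1 and samples numbered 4 to 6 in batch 2. All samples come from 1 cell line. The labels call them biological replicates and do not say whether each was a separate differentiation, so a p-value reflects only the spread among these 12 samples.

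Libraries held 20252508 to 25131093 counts in the tunicamycin group and 17523442 to 28872269 in the DMSO group. Levels are given as CPM, the counts scaled to a common library size. The alpha cell label was checked against its markers: GCG, which encodes glucagon, had 44800 to 68800 CPM in tunicamycin samples and 61700 to 92000 CPM in DMSO samples. The 10 alpha cell markers summed to 60300 to 96700 CPM in tunicamycin samples and 80600 to 120000 CPM in DMSO samples. The ER stress check genes HSPA5, HERPUD1, DDIT3, TRIB3 and ATF4 were all 5 called higher, with log2 fold changes of 0.46 (ATF4) to 2.63 (HSPA5).

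Markers of other cells were present, and some of them moved with the treatment. Of 6 beta and delta cell markers 3 were called lower. Their sums were 1640 to 3330 CPM (median 2310) in tunicamycin samples and 1260 to 5780 CPM (median 2000) in DMSO samples, so the median sum was not lower. The 10 mesenchymal markers summed to between 89.1 and 633 CPM (median 237) in tunicamycin samples and between 172 and 1530 CPM (median 447) in DMSO samples, with the highest sum in DMSO 1, and no marker was at 0 throughout a group. None of the 10 was called, while 8 were called lower in the fit with the sample number as a block. The 8 heart muscle markers summed to between 11.1 and 1100 CPM (median 31.9) in tunicamycin samples and between 9.89 and 2120 CPM (median 201) in DMSO samples, with the highest sums in tunicamycin 5 and DMSO 5. Of 8 ductal and acinar markers 4 were called lower, with sums of 165 to 333 CPM in tunicamycin samples and 371 to 571 CPM in DMSO samples, and of 6 liver and gut markers 4 were called lower, with sums of 195 to 317 CPM in tunicamycin samples and 348 to 469 CPM in DMSO samples. The part of beta, delta, ductal, acinar, liver and gut cells in the members' values was not tested. Myeloid cells are rich in lysosomes, but of their 8 markers only 4 had enough counts to be tested. LYZ was the 1 called, and was lower, and TYROBP had no count in any tunicamycin sample and at most 0.792 CPM in DMSO samples. In bulk RNA, fewer cells of a type and less RNA per cell cannot be told apart.

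A minority of the members was called higher with tunicamycin. A positive log2 fold change was found for 35 of 47 members, and for 8275 of the 17137 genes tested. Of 47 members 8 were called higher and 0 lower in edgeR's quasi-likelihood test at an adjusted p under 0.05, where 4.56% of the 17137 genes tested were called higher and 3.29% lower. The 8 were ATG13, GABARAPL1, MAP1LC3B, WIPI1 and ATG9A among the autophagosome genes, and MCOLN1, NPC1 and CTSB among the lysosomal genes. Their log2 fold changes lay between 0.54 and 0.85, well under those of HSPA5 or DDIT3. All 47 members passed the filter on low counts, and the lowest count of any member in any library was 103. The members together took 0.508 to 0.666% of a library (median 0.588%) in tunicamycin samples and 0.446 to 0.547% (median 0.526%) in DMSO samples.

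The autophagosome genes and the lysosomal genes were set side by side. Of the 31 autophagosome members 5 were called higher and 0 lower, 25 had a positive log2 fold change, and the median was 0.20. Of the 14 lysosomal members 3 were called higher and 0 lower, 9 had a positive log2 fold change, and the median was 0.08. The median of all genes tested was -0.01. Without overlap between the 6 tunicamycin and the 6 DMSO samples stood 4 autophagosome members and 0 lysosomal members, where 2.47% of all genes stood apart with tunicamycin higher. In all 6 pairs of samples with the same number 12 autophagosome members and 5 lysosomal members were higher with tunicamycin, as were 10.7% of all genes.

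**Figure D1:**
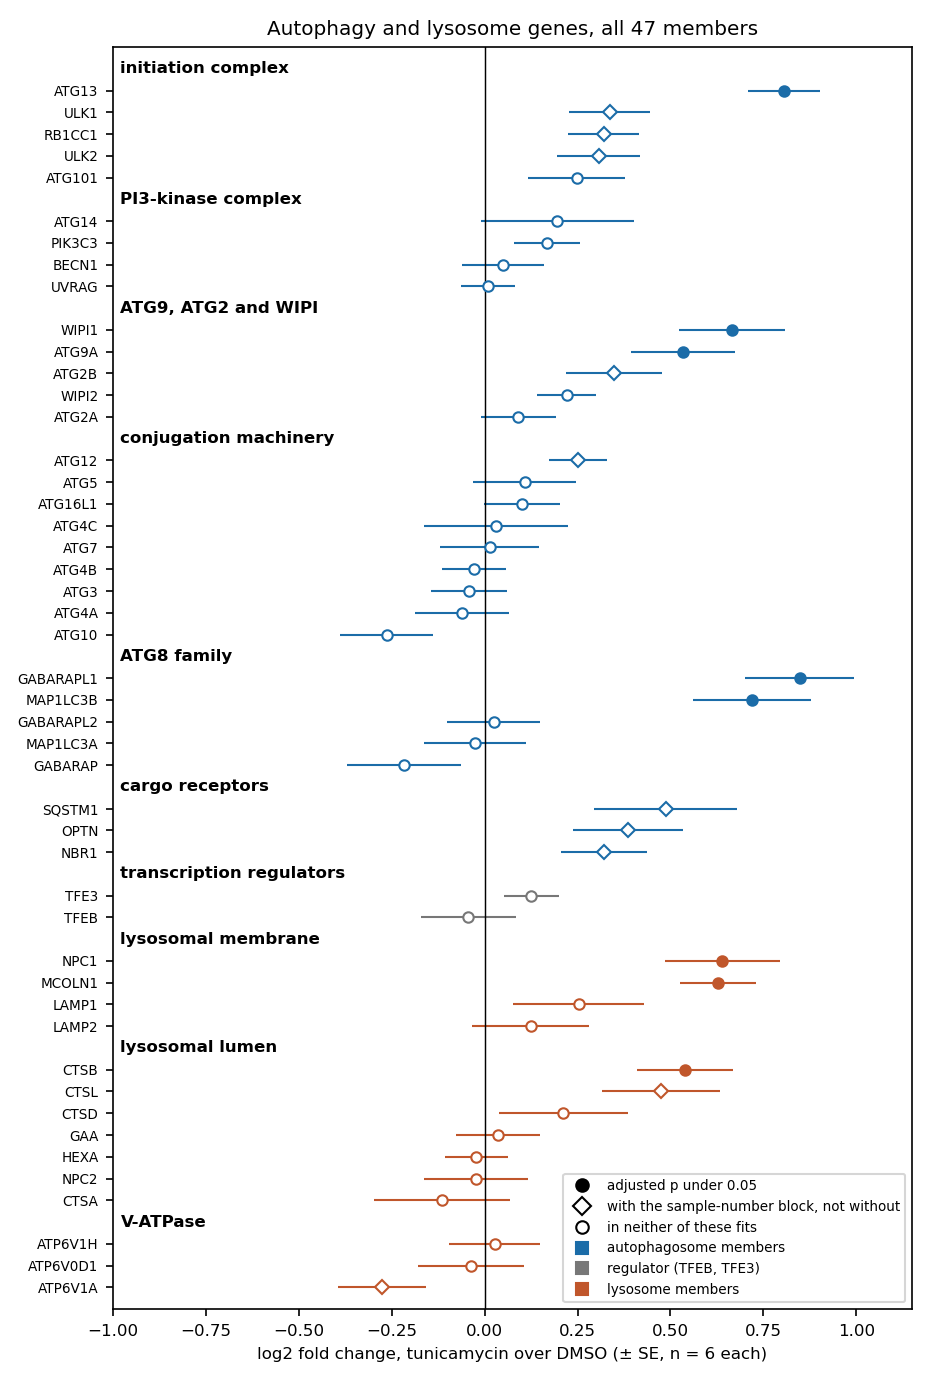
Log2 fold change of tunicamycin over DMSO for the 47 members, in the groups by role used in the text, with 6 samples in each group. Points are edgeR estimates and bars their standard errors. Filled points passed at an adjusted p under 0.05, diamonds passed with the sample number as a block but not without it, and the largest value is that of GABARAPL1 at 0.85.

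Samples with the same number deviated together for numbers 1 to 3 (correlations 0.505 to 0.579), and only weakly for numbers 4 to 6 (0.12 to 0.184). Numbers 4 and 5 correlated more with a sample of another number. The fit was repeated with the number as a block. With it 13 autophagosome members were called higher and 0 lower, and 4 lysosomal members higher and 1 lower, where 8.92% of all genes were called higher and 8.40% lower. The 10 members that edgeR's test of all 12 samples called with the block but not without it were ULK1, ULK2, RB1CC1, ATG2B, ATG12, SQSTM1, NBR1, OPTN and CTSL, all higher, and ATP6V1A, which was lower. DESeq2, another count model, called 13 members higher, the 8 above with ULK1, RB1CC1, WIPI2, ATG12 and CTSL, where it called 6.37% of all genes higher. When the mean of the mesenchymal markers was added as a covariate, ATG13, GABARAPL1 and MCOLN1 were called higher and ATP6V1A lower (3.10% and 1.73% of all genes). Without the samples numbered 1 and 5 (DMSO 1 held the most mesenchymal RNA, and tunicamycin 5 and DMSO 5 the most heart muscle RNA), ATG13, GABARAPL1 and MCOLN1 were called higher (2.08% of all genes) with 4 samples left in each group.

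The median log2 ratio of tunicamycin over DMSO among the 31 autophagosome members was 0.24, 0.25, 0.13, 0.18, 0.20 and 0.19 in pairs 1 to 6. Among the 14 lysosomal members it was 0.01, 0.20, 0.24, 0.25, 0.10 and -0.02. The autophagosome median was above 0 in 6 of 6 pairs and the lysosomal median in 5 of 6, and in each pair members of both kinds went both ways. The autophagosome median exceeded the lysosomal median in pairs 1, 2, 5 and 6 and was below it in pairs 3 and 4.

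**Figure D2:**
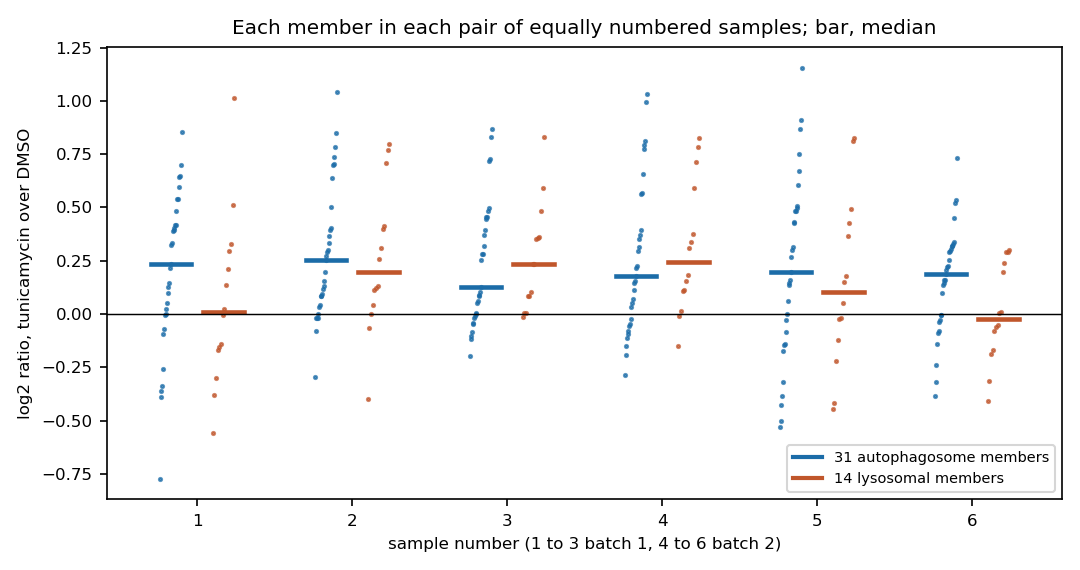
Log2 ratio of tunicamycin over DMSO for each member in each of the 6 pairs of samples with the same number; pairs 1 to 3 are batch 1 and pairs 4 to 6 batch 2. Each dot is 1 member and each bar the median of the 31 autophagosome or the 14 lysosomal members. The autophagosome bars lie between 0.13 and 0.25, and the lysosomal bars between -0.02 and 0.25.

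The ULK1 kinase complex, which starts autophagy, had all 5 subunits at positive log2 fold changes (0.25 to 0.81), with ATG13 the subunit that passed the test. ATG13, the adaptor that holds the complex together (chromosome 11, 46617527 to 46674818, plus strand, GRCh38), had 113, 129 and 146 CPM as the lowest, median and highest of the tunicamycin samples, and 65.0, 72.1 and 85.3 CPM in DMSO samples, and the same 3 values are given for the genes that follow. The lowest tunicamycin sample was above the highest DMSO sample, and ATG13 was higher in 6 of 6 pairs. The mean was 129 ± 12.9 CPM in tunicamycin samples and 73.8 ± 8.13 CPM in DMSO samples (SD, n = 6 each), a log2 fold change of 0.81 ± 0.10 (SE, adjusted p = 0.000151). With the mesenchymal covariate it was 0.72 (adjusted p = 0.00135).

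The other subunits had smaller log2 fold changes. ULK1, the kinase itself, had 119, 138 and 153 CPM in tunicamycin samples and 84.2, 112 and 128 CPM in DMSO samples, and the groups overlapped by the lowest tunicamycin sample, tunicamycin 2. Its log2 fold change of 0.34 ± 0.11 did not pass (adjusted p = 0.0772), but did with the block (0.00851), with DESeq2 (0.0397) and without DMSO 3 (0.0406). The related kinase ULK2 had 50.9, 55.9 and 59.4 CPM in tunicamycin samples and 34.7, 42.3 and 59.3 CPM in DMSO samples, and DMSO 3 was above all tunicamycin samples but the highest. RB1CC1, the scaffold also named FIP200, had 84.1, 91.2 and 93.8 CPM in tunicamycin samples and 59.5, 70.4 and 91.2 CPM in DMSO samples, of which DMSO 5 lay within the tunicamycin range. Each of these 3 genes was higher in 6 of 6 pairs, though the samples were nearly equal for ULK2 in pair 3 (log2 ratio 0.004) and RB1CC1 in pair 5 (0.0). ULK2 (0.31, adjusted p = 0.117) and RB1CC1 (0.32, adjusted p = 0.0577) did not pass either. ULK2 did with the block (0.0313) and without DMSO 3 (0.031), and its log2 fold change was 0.20 without the samples numbered 1 and 5. RB1CC1 passed with the block (0.0145), with DESeq2 (0.0241), with the heart muscle covariate (0.0277) and without DMSO 5 (0.0108). ATG101, which stabilises ATG13, had a log2 fold change of 0.25 ± 0.13 (adjusted p = 0.295).

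No gene of the phosphatidylinositol 3-kinase complex, which makes the lipid signal on the growing membrane, passed the test in either fit. The kinase PIK3C3 had 40.9, 51.3 and 58.0 CPM in tunicamycin samples and 36.8, 44.3 and 53.6 CPM in DMSO samples (0.17 ± 0.09, adjusted p = 0.294). The log2 fold changes of BECN1, its regulatory subunit, of ATG14, which directs it to autophagy, and of UVRAG, which directs it to endosomes, were 0.05, 0.20 and 0.01 (adjusted p 0.634 to 0.961). Of the exon bases of BECN1 17.1% are shared with CNTD1 and PSME3 on the other strand. UVRAG had 38.4 to 41.9 CPM in tunicamycin samples and 37.5 to 42.4 CPM in DMSO samples, and the ranges covered each other.

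Among the genes that feed and shape the growing membrane, WIPI1 and ATG9A rose. WIPI1, which binds the lipid signal (chromosome 17, 68420948 to 68457513, minus strand), had 14.5, 18.3 and 20.8 CPM in tunicamycin samples and 8.78, 11.3 and 14 CPM in DMSO samples. All tunicamycin samples were above all DMSO samples, and the log2 fold change was 0.67 ± 0.14 (adjusted p = 0.0109). The call was lost with the mesenchymal covariate (adjusted p = 0.0593), in batch 2 alone (0.0606) and without the samples numbered 1 and 5 (0.0522). On the genome 24.3% of its exon bases also lie in exons of ARSG on the other strand, and ARSG had a log2 fold change of 0.30 (adjusted p = 0.235). The sources used here do not give the strand setting of the counting, and reads from the shared bases cannot be told apart.

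ATG9A, the lipid scramblase whose vesicles seed the membrane (chromosome 2, 219219380 to 219229717, minus strand), had 101, 154 and 180 CPM in tunicamycin samples and 78.8, 107 and 117 CPM in DMSO samples. The groups overlapped, since tunicamycin 1 and tunicamycin 3 lay below the highest DMSO sample, yet ATG9A was higher in 6 of 6 pairs. The log2 fold change was 0.54 ± 0.14 (adjusted p = 0.0319, 0.00101 with the block). Of the 8 calls it was lost under the most alternatives, 12 of 23. It was lost without DMSO 1, tunicamycin 2, DMSO 3, DMSO 4, tunicamycin 4, DMSO 5 or tunicamycin 5 (adjusted p 0.0515 to 0.0788), with the mesenchymal covariate (log2 fold change 0.37, adjusted p = 0.18) and the heart muscle covariate (0.0545), without the batch covariate (0.0661) and without the samples numbered 1 and 5 (0.136).

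Neither lipid transporter, ATG2A or ATG2B, passed without the block. ATG2B had 61.7, 70.2 and 102 CPM in tunicamycin samples and 39.3, 57.8 and 78.5 CPM in DMSO samples, was higher in 6 of 6 pairs, and did not pass (0.35 ± 0.13, adjusted p = 0.123) except with the block (0.0185). Without the samples numbered 1 and 5 its log2 fold change was 0.23. ATG2A had a log2 fold change of 0.09 ± 0.10 (adjusted p = 0.659). WIPI2, which recruits the conjugation machinery, had 83.1, 101 and 107 CPM in tunicamycin samples and 80.2, 82.7 and 89.8 CPM in DMSO samples, was higher in 6 of 6 pairs, and passed with DESeq2 (0.0483) but not in edgeR's test (0.22 ± 0.08, adjusted p = 0.111).

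The enzymes that couple ATG8 proteins to lipid did not pass as individual genes, and their median log2 fold change was 0.01. Of these 9 genes ATG12, a ubiquitin-like protein that becomes part of the coupling enzyme, was called with the block (0.0314) and by DESeq2 (0.0211) but not in edgeR's test without the block (0.25 ± 0.08, adjusted p = 0.0679). It had 61.1, 66.5 and 75.4 CPM in tunicamycin samples and 52.1, 53.7 and 63.5 CPM in DMSO samples, with 1 tunicamycin sample below the highest DMSO sample. The most abundant, the protease ATG4B, which primes ATG8 proteins and frees them again, had 107, 119 and 132 CPM in tunicamycin samples and 101, 121 and 139 CPM in DMSO samples (-0.03 ± 0.09, adjusted p = 0.885). The E1-like enzyme ATG7, the E2-like ATG3, ATG5, ATG16L1, ATG4A and ATG4C had log2 fold changes between -0.06 and 0.11 (adjusted p 0.622 to 0.966). The lowest value was that of ATG10, the E2-like enzyme for ATG12 (-0.26 ± 0.13, adjusted p = 0.238). Of the exon bases of ATG7, 18.1% are shared with VGLL4 on the other strand.

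In the ATG8 family the response was split between members. GABARAPL1 and MAP1LC3B rose, while MAP1LC3A, GABARAPL2 and GABARAP did not pass. GABARAPL1 (chromosome 12, 10212458 to 10223130, plus strand) had 145, 203 and 266 CPM in tunicamycin samples and 93.8, 109 and 133 CPM in DMSO samples. No tunicamycin sample reached down to the DMSO range, and the log2 fold change of 0.85 ± 0.15 was the largest of all 47 members (1.80-fold, adjusted p = 0.00281). With the mesenchymal covariate it was 0.65 (adjusted p = 0.0199).

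MAP1LC3B, which encodes LC3B, the usual marker of autophagosomes (chromosome 16, 87383995 to 87404779, plus strand), had 126, 176 and 215 CPM in tunicamycin samples and 68.6, 110 and 125 CPM in DMSO samples. The groups stood apart by a narrow gap, between tunicamycin 3 and DMSO 5. The log2 fold change was 0.72 ± 0.16 (adjusted p = 0.0122), and the call was lost with the mesenchymal covariate (0.60, adjusted p = 0.0739) and without the samples numbered 1 and 5 (0.80, adjusted p = 0.0918). MAP1LC3B2 is a near-identical copy of MAP1LC3B, and GABARAPL3 is one of GABARAPL1. Their reads, which may have been split between genes in counting, numbered 520 for MAP1LC3B2 and 15 for GABARAPL3 over the 12 libraries.

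GABARAP had 272, 425 and 451 CPM in tunicamycin samples and 281, 451 and 580 CPM in DMSO samples, and the groups overlapped throughout (-0.22 ± 0.15, adjusted p = 0.450). MAP1LC3A (-0.03 ± 0.14, adjusted p = 0.938) and GABARAPL2 (0.03 ± 0.13, adjusted p = 0.935) overlapped as well. Per exon length, in RPKM (CPM divided by exon length in kilobases), GABARAP was the most abundant member, with a median level of 187 RPKM in tunicamycin samples and 199 RPKM in DMSO samples. It made up a median of 52.3% of the summed RPKM of the family in tunicamycin samples (49.7 to 56.9%) and 63.5% in DMSO samples (57.8 to 65.7%), without overlap. GABARAPL1 made up 15.4% in tunicamycin samples (13.9 to 16.8%) and 9.74% in DMSO samples (5.89 to 11.3%), and MAP1LC3B made up 10.1% in tunicamycin samples (8.46 to 13.4%) and 6.26% in DMSO samples (5.86 to 7.52%), both without overlap. Shares of a sum move against each other by construction, so the lower share of GABARAP stands beside the higher levels of the other two.

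**Figure D3:**
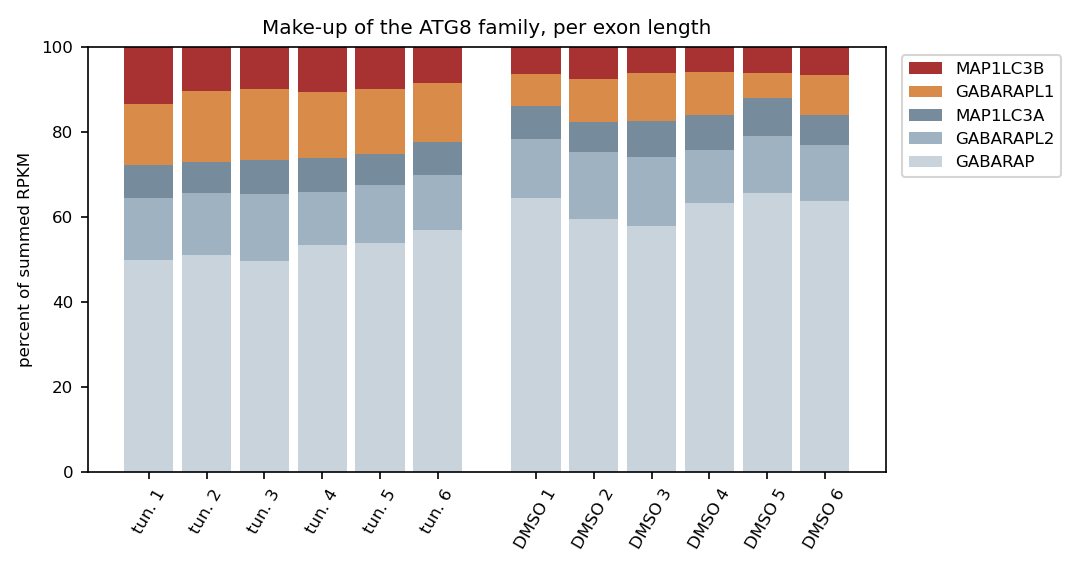
Make-up of the ATG8 family in each of the 12 samples, as percent of the summed RPKM of the 5 genes, tunicamycin samples at the left and DMSO samples at the right. GABARAP takes 49.7 to 56.9% in tunicamycin samples and 57.8 to 65.7% in DMSO samples, and the parts of GABARAPL1 and MAP1LC3B are larger in every tunicamycin sample than in any DMSO sample.

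The cargo receptors SQSTM1, NBR1 and OPTN did not pass in the fit of all samples without the block, and passed with it. SQSTM1, also named p62, which links ubiquitinated protein to ATG8 proteins and is itself degraded with the cargo, had 387, 534 and 735 CPM in tunicamycin samples and 247, 407 and 589 CPM in DMSO samples. The groups overlapped widely, with 4 tunicamycin samples below DMSO 5. By pair its log2 ratio was 0.65, 0.70, 0.83 and 0.81 in pairs 1 to 4 and -0.15 and 0.14 in pairs 5 and 6, so that 1 pair went against the other 5. The log2 fold change was 0.49 ± 0.19 (adjusted p = 0.152, 0.022 with the block) and 0.18 with the mesenchymal covariate (adjusted p = 0.638). Of its exon bases 20.7% are shared with MRNIP on the other strand (log2 fold change of MRNIP 0.23, adjusted p = 0.386).

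NBR1, a receptor built like SQSTM1, had 154, 167 and 216 CPM in tunicamycin samples and 119, 138 and 182 CPM in DMSO samples, and was higher in 6 of 6 pairs (0.32 ± 0.12, adjusted p = 0.113, 0.0116 with the block). It also passed without DMSO 2 (0.0338), and was 0.18 with the mesenchymal covariate (adjusted p = 0.449). OPTN, a receptor for damaged mitochondria and bacteria, had 81.2, 104 and 138 CPM in tunicamycin samples and 61.8, 82.9 and 109 CPM in DMSO samples, and was higher in 5 of 6 pairs (0.39 ± 0.15, adjusted p = 0.136, 0.0162 with the block). With the mesenchymal covariate it was 0.14 (adjusted p = 0.606). DMSO 2 was the highest DMSO sample for NBR1 and DMSO 6 for OPTN.

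Transcripts of the regulators TFEB and TFE3 did not pass in either fit. TFEB had 18.5, 29.3 and 33.1 CPM in tunicamycin samples and 25.1, 26.3 and 40.9 CPM in DMSO samples (-0.04 ± 0.13, adjusted p = 0.886). TFE3 had 68.6, 81.3 and 95 CPM in tunicamycin samples and 65.9, 73.2 and 84.2 CPM in DMSO samples (0.13 ± 0.07, adjusted p = 0.356). Both factors are known to be controlled by their entry into the nucleus, which transcript counts do not measure.

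TFEB and TFE3 bind a palindrome in lysosomal promoters, so the members' promoter windows were searched on both strands for TCACGTGA, for its core CACGTG, and for a longer form with a further G before it and C after it. The core lies within TCACGTGA, which lies within the longer form. Windows of 300 bases, 250 before to 50 after the start site, came from RefSeq (GRCh38.p14) for 39 members. The other 8 were not searched: RB1CC1, UVRAG, MAP1LC3A, LAMP2, CTSB, HEXA, ATP6V1A and ATP6V1H. TCACGTGA was in the window of 5 of 9 lysosomal members (MCOLN1, GAA, LAMP1, CTSA and ATP6V0D1) and of 1 of 28 autophagosome members (ATG3), against 1.18% of all 27305 genes with a window. CACGTG was in 6 of 9 lysosomal and 2 of 28 autophagosome members, against 8.77% of all genes. The longer form was in 2 of 9 lysosomal members (MCOLN1 and GAA) and in 0 of 28 autophagosome members, against 0.421% of all genes. The ATF4 and CEBP composite TGATGNAA (4.46% of all genes) and the ER stress element (CCAAT and CCACG with 9 bases between them, 0.0916%) were in none of the 39 windows. At these shares few or no matches are expected in 39 windows, and bases outside them were not searched, so the lack of a match says little.

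The windows printed next show the lysosomal genes with a pair of TCACGTGA sites, of which MCOLN1 was called and GAA and LAMP1 were not, and the ATG8 genes that rose, whose windows hold none. They are MCOLN1 at chr19:7522374-7522673, GAA at chr17:80101331-80101630, LAMP1 at chr13:113296989-113297288, GABARAPL1 at chr12:10212627-10212926 and MAP1LC3B at chr16:87392086-87392385. All are on the plus strand of GRCh38.p14, and capitals mark TCACGTGA.
MCOLN1: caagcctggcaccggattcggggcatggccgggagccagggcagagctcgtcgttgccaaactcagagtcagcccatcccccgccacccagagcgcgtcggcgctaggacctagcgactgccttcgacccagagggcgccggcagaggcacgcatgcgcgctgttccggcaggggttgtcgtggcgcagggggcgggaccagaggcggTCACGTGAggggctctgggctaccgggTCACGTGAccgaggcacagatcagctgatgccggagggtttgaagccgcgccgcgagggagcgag
GAA: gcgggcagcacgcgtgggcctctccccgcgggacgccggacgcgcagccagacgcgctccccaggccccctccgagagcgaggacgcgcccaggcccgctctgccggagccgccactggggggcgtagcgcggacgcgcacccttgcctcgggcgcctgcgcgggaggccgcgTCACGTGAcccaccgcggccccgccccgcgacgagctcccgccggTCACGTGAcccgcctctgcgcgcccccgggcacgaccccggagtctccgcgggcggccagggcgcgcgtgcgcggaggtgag
LAMP1: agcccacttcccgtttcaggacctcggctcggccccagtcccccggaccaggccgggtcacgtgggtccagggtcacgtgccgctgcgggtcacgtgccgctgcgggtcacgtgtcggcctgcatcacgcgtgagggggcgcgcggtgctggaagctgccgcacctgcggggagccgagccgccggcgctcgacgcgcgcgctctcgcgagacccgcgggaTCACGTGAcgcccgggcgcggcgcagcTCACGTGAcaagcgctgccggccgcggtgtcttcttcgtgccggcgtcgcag
GABARAPL1: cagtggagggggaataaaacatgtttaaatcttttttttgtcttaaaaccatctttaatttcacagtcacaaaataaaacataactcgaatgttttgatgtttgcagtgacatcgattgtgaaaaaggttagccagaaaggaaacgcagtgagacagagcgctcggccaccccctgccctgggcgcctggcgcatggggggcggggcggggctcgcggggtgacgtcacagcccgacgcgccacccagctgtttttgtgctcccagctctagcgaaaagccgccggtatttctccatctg
MAP1LC3B: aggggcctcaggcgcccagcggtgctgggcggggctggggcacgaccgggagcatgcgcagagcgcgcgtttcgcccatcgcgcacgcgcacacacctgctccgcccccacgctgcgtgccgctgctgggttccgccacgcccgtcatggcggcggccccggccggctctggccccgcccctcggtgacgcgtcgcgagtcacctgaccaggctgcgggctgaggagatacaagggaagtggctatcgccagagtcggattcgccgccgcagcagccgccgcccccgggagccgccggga
In MCOLN1 the sites start 42 and 15 bases before the start site, in GAA 77 and 32 bases, and in LAMP1 29 and 2 bases.

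Called genes were counted with and without the palindrome. Of the 5 lysosomal members with TCACGTGA, MCOLN1 was called higher, while LAMP1, GAA, CTSA and ATP6V0D1 were not. Of all 14 lysosomal members 3 were called higher, so the members alone are too few to compare. Among all 251 tested genes with TCACGTGA in a window 9 were called higher and 3 lower (3.59% higher, median log2 fold change 0.04). Of the 251, 143 had a positive log2 fold change, and with the block 23 were called higher and 8 lower. Among 12583 tested genes with a window and no such site 605 were called higher and 429 lower (4.81% higher, median -0.01). Of the 12583, 6052 had a positive log2 fold change, and with the block 1185 were called higher and 1096 lower. The 5 autophagosome members called higher had no TCACGTGA in their windows, and NPC1, called as well, had none in its window. CTSB, also called, had no window and was not searched. A match is a string of letters and does not show binding.

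At the lysosomal membrane MCOLN1 and NPC1 rose, and LAMP1 and LAMP2 did not pass. MCOLN1, the calcium channel TRPML1 (chromosome 19, 7522626 to 7534009, plus strand), had 43.8, 56.8 and 67.8 CPM in tunicamycin samples and 29.9, 35.1 and 44.6 CPM in DMSO samples. Only tunicamycin 1 lay below the highest DMSO sample, DMSO 6, and MCOLN1 was higher in 6 of 6 pairs. The log2 fold change was 0.63 ± 0.10 (1.54-fold, adjusted p = 0.0019). Adding the mesenchymal covariate gave 0.57 (adjusted p = 0.0152). The call held when any 1 sample was left out.

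NPC1, which exports cholesterol from the lysosome (chromosome 18, 23506184 to 23586898, minus strand), had 37.5, 45.9 and 52.1 CPM in tunicamycin samples and 20.9, 29.5 and 39.1 CPM in DMSO samples. The groups overlapped by tunicamycin 3, and NPC1 was higher in 6 of 6 pairs. The log2 fold change was 0.64 ± 0.16 (adjusted p = 0.0218). Of the exon bases of NPC1 5.98% are shared with RMC1 on the other strand (log2 fold change of RMC1 0.27, adjusted p = 0.158). The call was lost without DMSO 1 (adjusted p = 0.0519), tunicamycin 4 (0.0575) or DMSO 5 (0.0568), with the mesenchymal covariate (0.42, adjusted p = 0.102), in batch 2 alone (0.0599) and without the samples numbered 1 and 5 (0.23). NPC2, the soluble partner that hands cholesterol to NPC1, had 142, 211 and 248 CPM in tunicamycin samples and 168, 208 and 235 CPM in DMSO samples (-0.02 ± 0.14, adjusted p = 0.947).

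LAMP1 and LAMP2, the main glycoproteins of the lysosomal membrane, overlapped between groups. LAMP1 had 270, 375 and 490 CPM in tunicamycin samples and 212, 301 and 395 CPM in DMSO samples, and was higher in 5 of 6 pairs (0.25 ± 0.18, adjusted p = 0.440). LAMP2 had 175, 208 and 311 CPM in tunicamycin samples and 166, 184 and 302 CPM in DMSO samples (0.12 ± 0.16, adjusted p = 0.705). For LAMP2 the sample numbered 2 was the highest in both groups.

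Of 7 lumenal hydrolases and binding proteins, the cysteine protease CTSB rose. CTSB (chromosome 8, 11842524 to 11869448, minus strand) had 257, 392 and 437 CPM in tunicamycin samples and 184, 245 and 315 CPM in DMSO samples. Tunicamycin 1 and tunicamycin 3 lay below the highest DMSO sample, while 6 of 6 pairs were higher (0.54 ± 0.13, adjusted p = 0.0204). The call was lost without DMSO 4 (adjusted p = 0.0508) or tunicamycin 4 (0.0595), with the mesenchymal covariate (0.42, adjusted p = 0.128), in batch 2 alone (0.0613), without the batch covariate (0.0629) and without the samples numbered 1 and 5 (0.127). CTSL, a related protease, had 105, 143 and 198 CPM in tunicamycin samples and 84.8, 104 and 121 CPM in DMSO samples. It had 2 tunicamycin samples below the highest DMSO sample, was higher in 6 of 6 pairs, and did not pass (0.47 ± 0.16, adjusted p = 0.0876). It was called with the block (0.00545) and by DESeq2 (0.0391), and was 0.27 with the mesenchymal covariate (adjusted p = 0.409).

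The remaining lumenal enzymes were not called with or without the block. The aspartic protease CTSD had 335, 513 and 661 CPM in tunicamycin samples and 309, 453 and 531 CPM in DMSO samples (0.21 ± 0.17, adjusted p = 0.522). CTSD was higher in 6 of 6 pairs, by log2 ratios of 0.007 to 0.399. GAA, the glycogen-degrading glucosidase, had 77.6, 117 and 131 CPM in tunicamycin samples and 86.5, 108 and 133 CPM in DMSO samples (0.04 ± 0.11, adjusted p = 0.896). HEXA, a subunit of the ganglioside-degrading hexosaminidase (-0.02 ± 0.09, adjusted p = 0.912), and the carboxypeptidase CTSA (-0.12 ± 0.18, adjusted p = 0.771) did not pass. Of the exon bases of CTSA 21.1% are shared with NEURL2 and PLTP on the other strand.

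None of the 3 V-ATPase members was called higher. ATP6V1A, the catalytic subunit that splits ATP, had 106, 110 and 135 CPM in tunicamycin samples and 105, 137 and 178 CPM in DMSO samples and was lower in 5 of 6 pairs. It did not pass (-0.28 ± 0.12, adjusted p = 0.189). It was called lower with the block (0.0371) and when the mesenchymal covariate was added (-0.44, adjusted p = 0.0405). ATP6V0D1, of the membrane part of the pump, had 102, 149 and 155 CPM in tunicamycin samples and 83.7, 138 and 201 CPM in DMSO samples (-0.04 ± 0.14, adjusted p = 0.919). ATP6V1H, a regulatory subunit, had a log2 fold change of 0.03 ± 0.12 (adjusted p = 0.929).

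**Figure D4:**
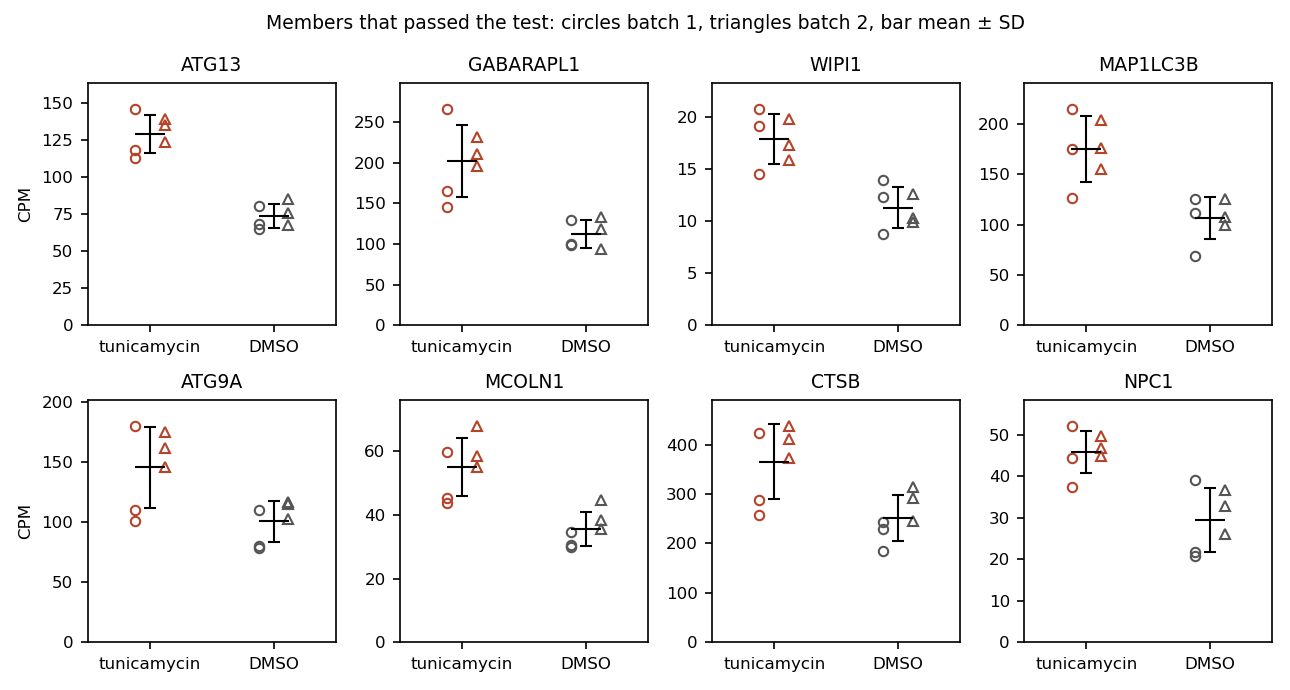
CPM of the 8 members called higher, in tunicamycin samples at the left of each panel and DMSO samples at the right, with circles for batch 1 and triangles for batch 2. Bars give the mean and SD of 6 samples. The groups do not overlap for ATG13, GABARAPL1, WIPI1 and MAP1LC3B and overlap for ATG9A, MCOLN1, CTSB and NPC1.

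The responses in the 2 batches were set side by side. For the 8 called members the log2 fold change lay between 0.55 and 0.83 in batch 1 and between 0.52 and 0.89 in batch 2. With 3 samples a group, no member was called in batch 1 alone, where 57 genes were called in all. The test of the difference between batches called 0 of 17137 genes (169 at an unadjusted p under 0.05 in edgeR's test, and 0 called by DESeq2 with 191 unadjusted), and no member had an unadjusted p under 0.05. The lowest unadjusted p in edgeR's quasi-likelihood test was that of SQSTM1, at 0.222 (adjusted p = 1.0). With 3 samples a group in each batch this test has little power for differences of the size of the members' responses, so it does not show that the batches responded alike.

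The mesenchymal markers were lower with tunicamycin in 5 of 6 pairs, and the lysosomal median shifted further than the autophagosome median when they were taken into the fit. With that covariate the median log2 fold change was 0.16 for the autophagosome members and -0.06 for the lysosomal members, against 0.20 and 0.08 without it. LAMP1 moved to 0.01 (adjusted p = 0.985) and CTSD to -0.004 (adjusted p = 0.993). ATG13, GABARAPL1 and MCOLN1 stayed called. With the mean of the heart muscle markers as a covariate, 7 of the 8 members stayed called, the exception being ATG9A.

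**Figure D5:**
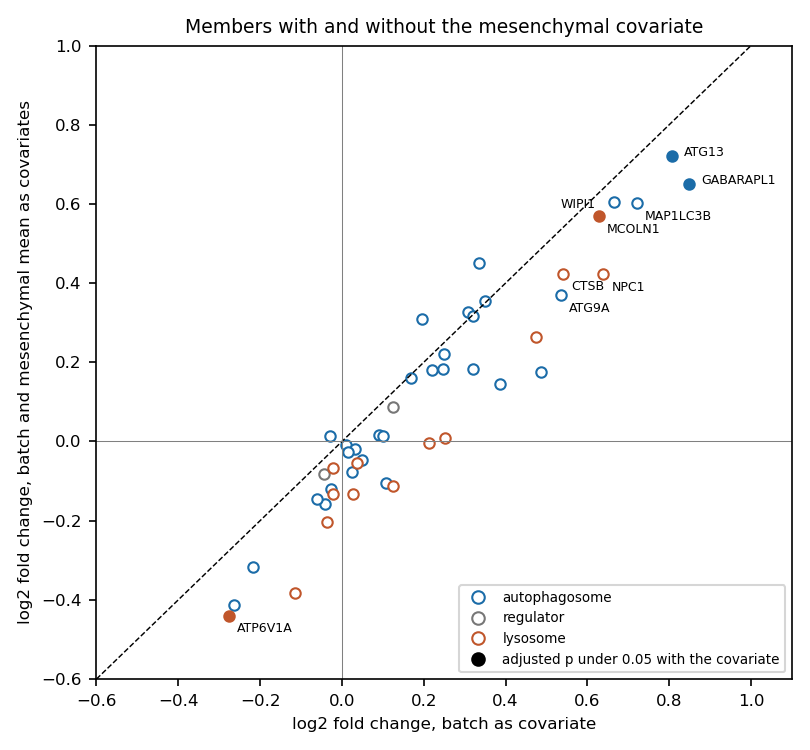
Log2 fold change of tunicamycin over DMSO for each member with batch alone as a covariate (horizontal axis) and with the mesenchymal marker mean added (vertical axis). The dashed line marks equal values, and filled points passed at an adjusted p under 0.05 with the covariate. Most points lie below the line, ATG13 and GABARAPL1 lie highest at 0.72 and 0.65, and ATP6V1A lies lowest at -0.44.

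Further genes of the same processes were examined from lists of related genes. Of 27 other autophagy genes 7 were called higher and 0 lower, with a median log2 fold change of 0.15, where 4.56% of all genes tested were called higher. DEPP1, a stress-induced regulator of autophagy, had 152, 398 and 514 CPM in tunicamycin samples and 53.8, 62.5 and 82.3 CPM in DMSO samples, without overlap (2.47 ± 0.22, adjusted p = 9.18e-06). TMEM41B, an ER lipid scramblase needed for autophagosome growth, had 92.0, 99.2 and 117 CPM in tunicamycin samples and 52.2, 59.9 and 72.7 CPM in DMSO samples (0.75 ± 0.08, adjusted p = 6.73e-05). Both stayed called with the mesenchymal covariate (adjusted p = 8.27e-05 for DEPP1 and 0.000731 for TMEM41B).

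Other lysosomal genes were counted by kind, with the same 4.56% of all genes called higher and 3.29% lower. With the block, 8.92% of all genes were called higher and 8.40% lower. Of 38 other hydrolases tested (of 39 listed) 0 were called in either direction by edgeR's test, with a median of 0.03, and 2 were called higher and 1 lower with the block. Of 20 other lysosomal membrane genes 2 were called higher and 0 lower, with a median of 0.25, and 9 were called higher with the block. SLC38A9, an arginine sensor of the lysosome, had 25.6, 30.0 and 37.5 CPM in tunicamycin samples and 13.8, 17 and 23.9 CPM in DMSO samples (0.83 ± 0.13, adjusted p = 0.00126). CTNS, the cystine exporter, had 38.7, 40.0 and 42.3 CPM in tunicamycin samples and 26.6, 28.0 and 31.8 CPM in DMSO samples (0.49 ± 0.08, adjusted p = 0.00153). Neither gene overlapped between groups, and both calls were lost without the samples numbered 1 and 5 (adjusted p = 0.0545 for SLC38A9 and 0.0507 for CTNS). Both were also lost in batch 1 alone (0.319 for SLC38A9 and 0.244 for CTNS), and that of CTNS in batch 2 alone (0.0776).

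The V-ATPase members gave only part of the pump. Of 20 other V-ATPase genes tested (of 22 listed) 3 were called higher and 0 lower, with a median of 0.01, against the 4.56% of all genes called higher. ATP6V0A1, a membrane subunit that places the pump in a given organelle, had 277, 367 and 422 CPM in tunicamycin samples and 152, 215 and 237 CPM in DMSO samples, without overlap (0.80 ± 0.13, adjusted p = 0.00146). ATP6V1C2, a tissue-restricted subunit, had 6.72, 8.23 and 10.3 CPM in tunicamycin samples and 2.33, 3.12 and 4.43 CPM in DMSO samples, without overlap (1.40 ± 0.18, adjusted p = 0.00022). ATP6V0A2, a Golgi-associated form, was the third (0.50 ± 0.13, adjusted p = 0.0246). Its call was lost without DMSO 1, tunicamycin 3, DMSO 4, tunicamycin 4, DMSO 5 or tunicamycin 5 (adjusted p 0.0506 to 0.0668), without the batch covariate (0.0671), in batch 2 alone (0.0596) and without the samples numbered 1 and 5 (0.252).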

How the data were processed

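RNA from 12 samples of stem cell-derived alpha cells was sequenced in bulk, 6 treated with tunicamycin and 6 with DMSO. The authors deposited raw read counts per gene symbol, not normalized. The submitters' processing notes name featureCounts 2.0.6, HISAT2 2.1.0, cutadapt 4.4 and the build GRCh38. The sources used here give neither annotation nor strand setting, so overlapping and near-identical genes are uncertain. Libraries held 17523442 to 28872269 counts. No 2 samples of a group were as alike as 1 library counted again would be (chi-square per gene 10.9 to 99.6, genes with at least 20 counts in all), so all 12 count as samples.

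Genes were filtered with filterByExpr, which kept 17137, and scaled with TMM factors in edgeR 4.0.16 (R 4.3.3). CPM use the scaled library sizes. Tunicamycin was compared with DMSO over all 12 samples by edgeR's two-sided quasi-likelihood test in a model with batch and treatment, with Benjamini-Hochberg adjustment over all genes tested and a threshold of 0.05. Fold changes are tunicamycin over DMSO, and "called" means past that threshold. The scripts were tested on simulated data. There the test of treatment recovered 28.6% of 1.5-fold, 65.8% of 2-fold and 91.5% of 4-fold changes. Of its calls 5.8% were false. Many changes of the size seen in the members can thus be missed, and a member that did not pass is not shown to be unchanged. The members, roles, related gene lists, markers and alternatives were chosen with earlier results of these data known, so no test over a list was made. Full values are given for members called in either fit and for the most abundant of each role, and for up to 2 genes called with the smallest p in each related list. ATP6V0A2 is named beyond that rule, to complete a count of 3. The lowest, median and highest CPM are also given beyond it for WIPI2, TFEB, LAMP2, GAA, NPC2 and MITF.

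Samples with the same number deviated together from the group and batch means (correlations across genes of 0.505, 0.579, 0.519, 0.12, 0.184 and 0.182 for numbers 1 to 6), each over 0.1, so the numbers were taken as pairs, though the labels leave the meaning of a number unstated. Numbers 4 and 5 had a higher correlation with a sample of another number (0.196 and 0.273) than with their own. The fit with the number as a block is given where it changes a call. Alternatives were size factors of another kind, DESeq2 1.42.0, limma-voom (limma 3.58.1), no count filter, no batch covariate, each batch alone, each sample left out in turn and the mean of the mesenchymal markers as a covariate. The heart muscle covariate and the fit without samples numbered 1 and 5 were added after seeing the data.

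Gene positions and exon lengths are from GENCODE release 29 (GRCh38), and RPKM were computed with these lengths. Promoter windows are from RefSeq (GRCh38.p14). Protein sequences were not analysed here. A few alpha cell marker results are not reported here.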

Additional observations from a re-analysis of the deposited data

Results flagged for a closer look

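Of 94 groups of 6 samples, 1 for each member and treatment, 7 held a sample far from the other 5, by a gap to its nearest neighbour that took most of the group's range (Dixon's test at the 95% level). Chance flags about 1 in 20 groups. Among the tunicamycin samples, tunicamycin 2 stood above the rest for ATG3, at 47.1 CPM with the next sample at 37.4, and for ATG10, at 18.2 CPM with the next at 14.3. Among the DMSO samples, DMSO 3 stood out for ATG14 (60.6 CPM, next 28.3). DMSO 5 stood out for TFEB (40.9 CPM, next 28.4) and for WIPI2 (89.8 CPM, next 83.0). DMSO 2 stood out for LAMP2 (302 CPM, next 199) and for NBR1 (182 CPM, next 138). None of these 7 genes passed edgeR's quasi-likelihood test of all 12 samples without the block. NBR1 passed it with the block (adjusted p = 0.0116) and without DMSO 2 (0.0338).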

How the results depend on the processing

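The count of genes changed, 1344, was 2096 with DESeq2, 2967 with the replicate block, 827 with the mesenchymal covariate, 57 and 654 in batches 1 and 2 alone, 489 without samples numbered 1 and 5, and 791 to 1399 when each sample was left out in turn (791 without tunicamycin 4). The count of autophagosome members called higher, 5, was 9 with DESeq2, 13 with the block, 2 with the mesenchymal covariate, 0 in batch 1 alone, 2 without samples numbered 1 and 5, and 4 to 6 with a sample left out. The count of lysosomal members called higher, 3, was 1 with the mesenchymal covariate, 0 in batch 1 alone, 1 in batch 2 alone, 1 without samples numbered 1 and 5, and 1 to 3 with a sample left out (1 without tunicamycin 4). The count of lysosomal members called lower, 0, was 1 with the block and 1 with the mesenchymal covariate. The autophagosome median, 0.196, was 0.148 with the heart muscle covariate and 0.143 to 0.213 with a sample left out (0.143 without DMSO 1), and the lysosomal median, 0.080, was -0.061 with the mesenchymal covariate and -0.014 to 0.184 with a sample left out. The cause of these shifts was not tested, except that fits within a batch or without samples hold fewer samples. Over 25 members and 23 alternatives, 519 of 575 values kept their side of the threshold, 36 calls were lost, 20 were gained and 0 reversed. All 36 losses fell on the 8 called members, since the rest of the 25 had no call to lose. ATG9A lost its call under 12 of 23 alternatives, NPC1 and CTSB under 7, WIPI1 under 4 and MAP1LC3B under 3. ATG13, GABARAPL1 and MCOLN1 lost theirs under 1. All 8 calls were also made with the block. The lowest count of any member was 103, and whether depth limits a member's call was not tested.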

Other observations

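Delivery of enzymes to the lysosome and the control of TFEB by nutrient signalling were examined from lists of related genes. Of 13 genes of mannose 6-phosphate sorting, the route by which new hydrolases reach the lysosome, 1 was called higher and 0 lower by edgeR's quasi-likelihood test, with a median log2 fold change of 0.07, where 4.56% of all genes were called higher and 3.29% lower. It was GGA2, a coat adaptor at the Golgi, with 238, 261 and 335 CPM as the lowest, median and highest tunicamycin samples and 135, 179 and 215 CPM in DMSO samples, without overlap (0.61 ± 0.12, adjusted p = 0.00697, 0.0505 with the mesenchymal covariate and 0.0525 without the samples numbered 1 and 5). Of 21 tested genes that control TFEB or resemble it, 0 were called higher and 1 lower, a share close to that of all genes, with a median of 0.05. LAMTOR4, a subunit of the Ragulator scaffold that holds mTORC1 at the lysosome, had 35.8, 44.3 and 56.5 CPM in tunicamycin samples and 48.0, 60.4 and 101 CPM in DMSO samples, and was lower in 6 of 6 pairs (-0.49 ± 0.13, adjusted p = 0.039, 0.199 with the mesenchymal covariate). That call was lost when any of DMSO 1, 3 or 5 or tunicamycin 1, 3, 4, 5 or 6 was left out (adjusted p 0.0573 to 0.109). It was also lost in batch 1 alone (0.454), in batch 2 alone (0.24), with the heart muscle covariate (0.0738), without the batch covariate (0.112) and without the samples numbered 1 and 5 (-0.27, adjusted p = 0.246). MITF, a relative of TFEB, had 9.49, 14 and 15.8 CPM in tunicamycin samples and 12.9, 17 and 24.0 CPM in DMSO samples, and was not called (-0.43 ± 0.13, adjusted p = 0.0622), though it was called lower with the block (0.022), by DESeq2 (0.0196) and by limma-voom (0.0426).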
